A study of Mus musculus with 30 samples.

Results

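The Gdf11 response of Nr6a1-/- cells is the difference between cells that received the growth factor Gdf11 for the last 24 h before collection at day 4 (d4G) and cells of the same day that did not (d4). The 3 d4G and 3 d4 libraries of Nr6a1-/- cells were taken by their labels and column names, which makes 6 of the 30 libraries of the series, and every gene was described in them, with Hox genes given by counts only. All cells came from Bruce4, a mouse embryonic stem cell line, and were driven towards neuromesodermal progenitors (NMPs) with FGF2 from the start and the Wnt pathway agonist CHIR99021 from day 2, which both groups shared. The Nr6a1-/- cells were 1 clone with CRISPR/Cas9 deletions in Nr6a1, so that a property of the clone and a property of the genotype cannot be told apart, and both d4 and d4G cells carried the deletions. The 3 d4 and 3 d4G libraries of wildtype Bruce4 cells were treated alike and served to compare the size of the response between genotypes. The study's methods call the replicates biological, but the labels name them by letter only and do not say that they were separate cultures, so p-values measure the spread between these libraries, which may be technical.

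Gdf11 is a secreted ligand of the TGF-beta superfamily that binds activin-type receptors and signals through the transcription factors Smad2 and Smad3. In the embryo it acts in the tail bud, where NMPs give rise to both spinal cord and paraxial mesoderm, and it is needed for the change from making trunk to making tail. Nr6a1 is an orphan nuclear receptor that is expressed in the trunk-forming embryo and is switched off as the tail begins.

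The 6 libraries held 1570714 to 2557227 counts, and 3 counts in a library correspond to 1.17 to 1.91 CPM (counts over the library total, on a fixed scale). Levels are given as CPM scaled by TMM (a normalisation for library composition), changes as log2 fold changes, d4G over d4, with standard errors where given, and a gene was called when the FDR of edgeR's quasi-likelihood test, adjusted over all genes by the Benjamini-Hochberg method, was below 0.05. The d4 Nr6a1-/- replicate 1 stood apart from the other d4 Nr6a1-/- libraries. Ribosomal protein genes took 17% of its counts against 13.1% and 12.3% in d4 replicates 2 and 3 and 12.4% to 12.6% in the d4G libraries, and its chi-square per gene was 6.38 and 7.59 against the other replicates, which differed from each other by 2.82. The labels give d4 Nr6a1-/- replicates 2 and 3 the index sequences of d3 Nr6a1-/- replicates 2 and 3 (cells of the day before). They give d4 Nr6a1-/- replicate 1 that of d4G replicate 1, and each wildtype d4 library that of the wildtype d4G library of the same number. The study's methods add the index at priming and amplify pooled samples, and the labels name no pools. Reads of libraries that share an index cannot be separated within a pool, so by the labels such libraries were in different pools. This holds for d4 and d4G replicate 1 of Nr6a1-/- cells and for same-numbered d4 and d4G libraries of wildtype cells. The pools of the other Nr6a1-/- d4 and d4G libraries are not given. Where d4 and d4G libraries were in different pools, a difference between pools and the Gdf11 response cannot be told apart. The labels of the Nr6a1-/- libraries were also checked against the counts. Over the 12149 genes tested, log2(CPM + 1) correlated at 0.974 to 0.979 among the 3 d4 libraries, at 0.935 to 0.944 between d4 and d3 libraries and at 0.937 to 0.951 between d4 and d4G libraries, where genes are not independent replicates. Each d4 library was thus most like the other d4 libraries, also where an index was shared (0.938 and 0.944 with d3, 0.939 with d4G), and all were used as labelled. Libraries of the same pool could be alike for that reason, so these correlations do not settle whether the labels are right. Reads came from the 3′ ends of transcripts, away from the deleted exon, so the level of Nr6a1 is no check of the labels. Nr6a1 was nevertheless among the genes that changed, with 189, 224 and 255 CPM in d4 and 18.8, 29.3 and 37.8 CPM in d4G. No d4G library reached a d4 library, and Nr6a1 transcripts fell by 2.95 ± 0.14 on the log2 scale (FDR 5.87e-19).

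Of 12149 genes tested, 2191 (18.0%) passed the test in Nr6a1-/- cells, 1026 (8.45%) higher and 1165 (9.59%) lower after Gdf11. The median change over all genes was -0.0185 and the median size of change among called genes 0.758. A rise of more than 4-fold was called in 165 genes and a fall of more than 4-fold in 123. The 3 d4G libraries lay wholly above or below the 3 d4 libraries in 3560 genes (29.3%), among them 2022 of those called. Scaling without normalisation factors raised the share of called genes that were higher from 46.8% to 59.7%, so that the balance of rises and falls depends on the scaling. Without d4 replicate 1, 1608 genes were called, and a fit of the compared libraries alone called 791 higher and 676 lower.

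**Figure D1:**
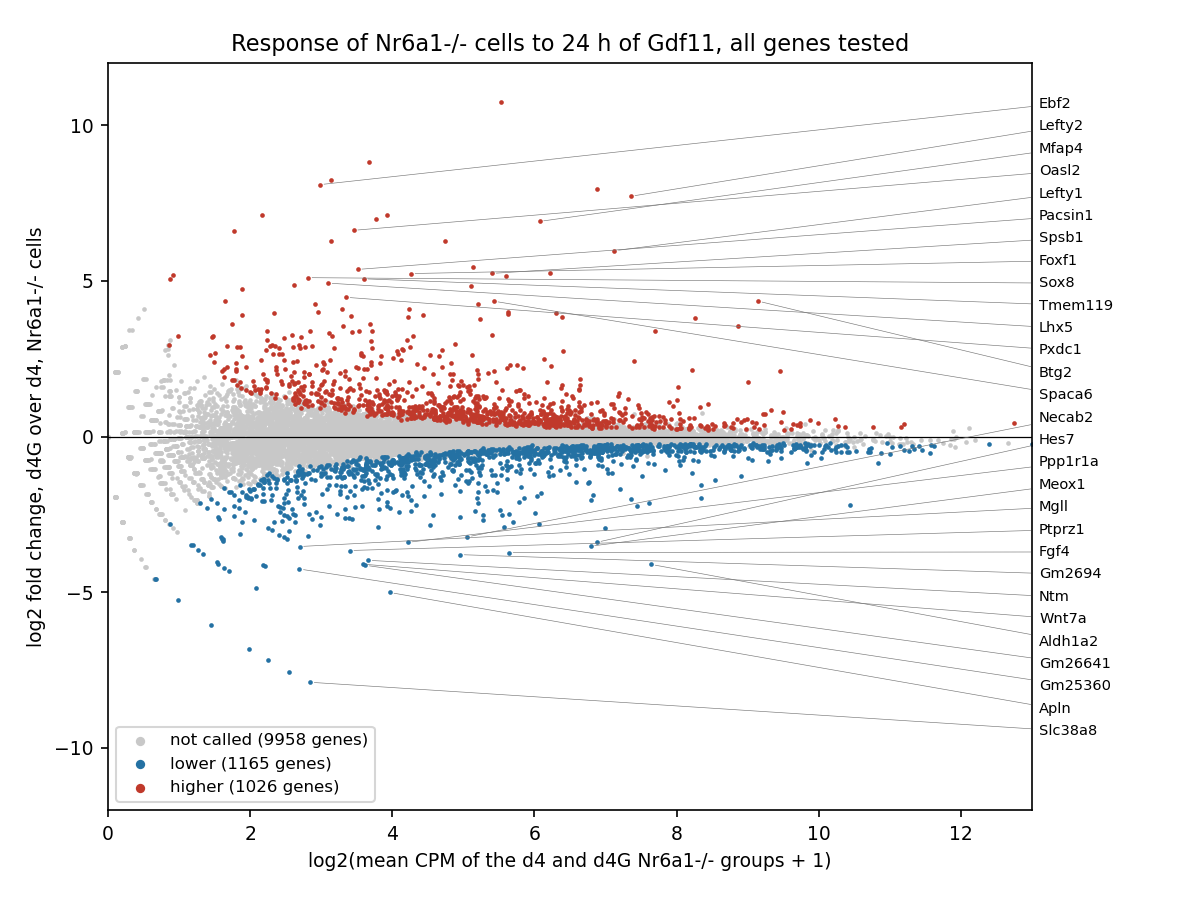
Log2 fold change of d4G over d4 in Nr6a1-/- cells (vertical axis) against log2 of the mean CPM of the d4 and d4G groups plus 1 (horizontal axis), with each of 12149 tested genes as a point, 1026 higher in red and 1165 lower in blue. The labelled genes are from the 15 largest rises and 15 largest falls, chosen by level and separation of the libraries, from Ebf2 at the top to Slc38a8 at the bottom.

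The 15 largest rises outside the Hox genes, among called genes whose d4 or d4G mean reached 10 CPM and whose libraries did not overlap, included Ebf2, Lefty2, Mfap4, Oasl2, Lefty1, Pacsin1, Spsb1, Foxf1, Sox8, Tmem119, Lhx5, Pxdc1, Btg2 and Spaca6. Ebf2 (chr14:67233292-67430918), a transcription factor of mesenchymal and adipocyte precursors, had no count in any d4 library and 18.3, 7.64 and 15.4 CPM in d4G, at least 32.2-fold higher when 3 counts are allowed over the d4 group. Ebf2 was thus below the limit of detection in day 4 cells without Gdf11 and above it in every library of cells with Gdf11. Mfap4, a microfibril-associated protein of the extracellular matrix, had 0.866, 0 and 2.13 CPM in d4 and 131, 138 and 126 CPM in d4G. Btg2, a brake on the cell cycle, was the most abundant of them, with 55.4, 43.5 and 58.8 CPM in d4 and 1119, 1083 and 1031 CPM in d4G, and rose by 4.35 ± 0.10 (FDR 4.94e-28). Its 3 d4G values lay close together and far above the d4 values. Spsb1, the adaptor of a ubiquitin ligase, had 1.73, 2.9 and 1.7 CPM in d4 and 80.8, 78.3 and 82.8 CPM in d4G. Oasl2, a member of the interferon-inducible oligoadenylate synthetase-like family, had a single count over the d4 libraries and 21.6, 19.7 and 18 CPM in d4G, a pooled ratio of 133 with an exact 95% interval of 23.4 to 5283 for counting error.

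The 15 largest falls by the same rule were Slc38a8, Apln, Gm25360, Gm26641, Aldh1a2, Wnt7a, Ntm, Gm2694, Fgf4, Ptprz1, Mgll, Meox1, Ppp1r1a, Hes7 and Necab2. Slc38a8, an amino acid transporter gene, had 13.9, 12.6 and 10.7 CPM in d4 and no count in any d4G library, at least 24.6-fold lower when 3 counts are allowed over the d4G group. Its neighbour Necab2 (chr8:119446719-119472640, against chr8:119479602-119501698 for Slc38a8) had 60.6, 57.6 and 56.7 CPM in d4 and 3.37, 7.64 and 7.72 CPM in d4G. Apln, the ligand of the apelin receptor, had 22.1, 23.2 and 40 CPM in d4 and 0.962, 0.637 and 0.858 CPM in d4G, a log2 change of -5.01 (FDR 2.44e-10). Gm25360 is annotated as a small nuclear RNA, and Gm26641 and Gm2694 are long intergenic non-coding RNAs. Ptprz1, a receptor phosphatase of neural cells, and Ntm, a neural adhesion protein, were at 13.4 to 25.1 CPM in d4 and at or below 2.55 CPM in d4G.

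Promoters are shown for 6 of the genes that changed, 3 that rose (Pxdc1, the Wnt antagonist Nkd2 and the ligand Nodal) and 3 that fell (Wnt7a, Cdx2 and Aldh1a2), so that the same short motif can be looked for in both directions. The windows are the 250 bases before the gene start in RefSeq (GRCm38.p6), 5′ to 3′ on the strand of the gene, in lower case, with every CAGAC or its reverse complement GTCTG, the core of the SMAD-binding element, in capitals. They are relative to the RefSeq start, and in the GENCODE M21 annotation, whose genes were counted, the whole window of Pxdc1 and the last 21 and 10 bases of those of Cdx2 and Wnt7a lie within the gene.
Nkd2, chr13:73847632-73847881, minus strand: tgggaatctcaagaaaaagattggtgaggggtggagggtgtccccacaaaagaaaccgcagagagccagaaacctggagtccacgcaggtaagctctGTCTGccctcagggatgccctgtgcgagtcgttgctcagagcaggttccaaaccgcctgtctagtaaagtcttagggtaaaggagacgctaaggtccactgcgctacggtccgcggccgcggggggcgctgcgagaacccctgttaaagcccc
Pxdc1, chr13:34652682-34652931, minus strand: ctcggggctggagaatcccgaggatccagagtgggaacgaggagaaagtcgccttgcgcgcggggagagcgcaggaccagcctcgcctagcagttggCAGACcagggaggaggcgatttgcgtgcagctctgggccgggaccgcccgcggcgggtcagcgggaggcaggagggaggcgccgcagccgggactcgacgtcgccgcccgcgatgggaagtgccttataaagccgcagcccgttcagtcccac
Nodal, chr10:61417722-61417971, plus strand: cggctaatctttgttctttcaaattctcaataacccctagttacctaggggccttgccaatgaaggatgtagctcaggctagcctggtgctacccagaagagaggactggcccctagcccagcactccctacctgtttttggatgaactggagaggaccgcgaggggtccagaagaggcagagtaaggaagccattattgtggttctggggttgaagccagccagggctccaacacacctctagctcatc
Wnt7a, chr6:91411354-91411603, minus strand: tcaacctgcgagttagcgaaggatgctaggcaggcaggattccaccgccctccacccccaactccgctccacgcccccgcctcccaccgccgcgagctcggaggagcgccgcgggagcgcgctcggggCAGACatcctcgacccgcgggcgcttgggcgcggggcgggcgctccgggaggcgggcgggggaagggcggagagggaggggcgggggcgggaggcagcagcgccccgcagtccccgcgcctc
Cdx2, chr5:147307250-147307499, minus strand: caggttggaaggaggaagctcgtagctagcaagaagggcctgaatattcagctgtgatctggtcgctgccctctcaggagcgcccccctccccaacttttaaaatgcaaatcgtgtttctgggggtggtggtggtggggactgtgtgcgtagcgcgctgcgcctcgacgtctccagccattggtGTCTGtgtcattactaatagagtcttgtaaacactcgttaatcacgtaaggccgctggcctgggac
Aldh1a2, chr9:71215539-71215788, plus strand: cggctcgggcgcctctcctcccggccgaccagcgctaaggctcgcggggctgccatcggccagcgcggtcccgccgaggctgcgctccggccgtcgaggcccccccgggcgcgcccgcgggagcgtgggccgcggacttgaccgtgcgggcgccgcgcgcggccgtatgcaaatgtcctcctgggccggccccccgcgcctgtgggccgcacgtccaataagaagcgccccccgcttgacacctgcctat

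A CAGAC was found once each in the windows of Nkd2, Pxdc1, Wnt7a and Cdx2 and not in those of Nodal and Aldh1a2. A RefSeq window could be matched by symbol for 8800 tested genes. The motif, on either strand, was present in 39.8% of all 8800 windows, in 41% of 764 windows of genes that rose and in 37.4% of 843 windows of genes that fell, shares that were not tested against each other. Among genes past 4-fold it was present in 44 of 100 that rose (44%) and 29 of 78 that fell (37.2%). The motif TGTNNATT, which resembles the site of the Smad partner Foxh1, was present in 6.11% of all windows, in 6.68% of those of genes that rose and in 7.71% of those of genes that fell, and past 4-fold in 8 of 100 that rose (8%) and 11 of 78 that fell (14.1%). The palindrome GTCTAGAC, a SMAD-binding site that contains neither CAGAC nor GTCTG, was in 18 of the 8800 windows (0.205%), in 0 of the 764 of genes that rose and in 1 of the 843 of genes that fell. These are counts of letters and say nothing of binding.

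Targets and feedback inhibitors of the SMAD pathway rose together. Of 31 listed genes 21 were tested, and 16 were higher (76.2%, against 8.45% of all genes), 1 was lower and 4 were not called, with a median change of 1.64 against -0.0185 over all genes. Without d4 replicate 1, 14 were higher and 1 lower. This list and those below were chosen with earlier results of these data known, so their shares describe the members and are no test. Lefty2 and Lefty1, secreted inhibitors of Nodal that lie side by side (chr1:180893108-180899103 and chr1:180935022-180938400), changed most. Lefty2 had 1.3, 2.42 and 0.852 CPM in d4 and 313, 331 and 329 CPM in d4G, a rise of 7.72 ± 0.26 (FDR 3.91e-23). Lefty1 had 4.76, 2.9 and 5.11 CPM in d4 and 285, 260.5 and 274 CPM in d4G, a rise of 5.97 ± 0.16 (FDR 4.73e-26). In both genes the d4 libraries were near the limit of detection and the d4G libraries far above it.

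The other responders were Nodal itself, intracellular inhibitors of SMADs and target transcription factors. Pmepa1, a membrane protein that sequesters Smad2 and Smad3, had 2.6, 2.9 and 5.11 CPM in d4 and 82.7, 54.8 and 66.9 CPM in d4G. Nodal had 0.433, 1.45 and 0.852 CPM in d4 and 16.4, 21 and 12.4 CPM in d4G, the d4 values being at or below the level of 3 counts. In both genes the groups were widely apart, with log2 changes of 4.25 in Pmepa1 and 4.11 in Nodal. Skil, a co-repressor of SMADs, had 32.5, 41.1 and 34.5 CPM in d4 and 447, 391 and 287 CPM in d4G (change 3.38), and its relative Ski had 40.7, 52.2 and 50.7 CPM in d4 and 150.5, 164 and 136 CPM in d4G (change 1.64). Smad7, the inhibitory SMAD, rose by 3.84 (FDR 7.71e-12), and the organiser gene Gsc by 2.86 (FDR 1.64e-07). Mixl1, a homeobox gene of the primitive streak, had 75.4, 163 and 109.5 CPM in d4 and 273, 211 and 216 CPM in d4G and rose by 1.02 (FDR 4.17e-05).

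The only list member that fell was Fst, which encodes follistatin, the secreted antagonist that binds activin and Gdf11. Fst had 59.3, 53.7 and 74.6 CPM in d4 and 34.6, 29.3 and 34.8 CPM in d4G, so every d4G library was below every d4 library, and it fell by 0.92 ± 0.13 on the log2 scale (FDR 1.56e-06). In wildtype cells Fst had 5.23, 7.46 and 9.31 CPM in d4 and 42.8, 43 and 40.9 CPM in d4G, a rise of 2.48 (FDR 2.03e-14). The difference between the responses, -3.40, passed its own test (FDR 8.08e-14). Transcripts of the ligand itself, Gdf11, were at 86.2, 63.9 and 63.5 CPM in d4 and 158, 118 and 93.9 CPM in d4G in Nr6a1-/- cells (rise 0.79, FDR 0.00735, which became 0.107 without d4G replicate 1), and those of Smad3 at 28.6, 31.9 and 37.9 CPM in d4 and 20.2, 19.7 and 16.7 CPM in d4G (log2 change of -0.80, FDR 0.00118). Of 17 tested Gdf11-related ligand, receptor, SMAD and processing enzyme genes, these and Bmp1, a protease that can free Gdf11 from its propeptide, were called. That made 2 higher (11.8%) and 1 lower (5.88%), near the 8.45% and 9.59% of all genes. Without d4G replicate 1 only 1 was higher.

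**Figure D2:**
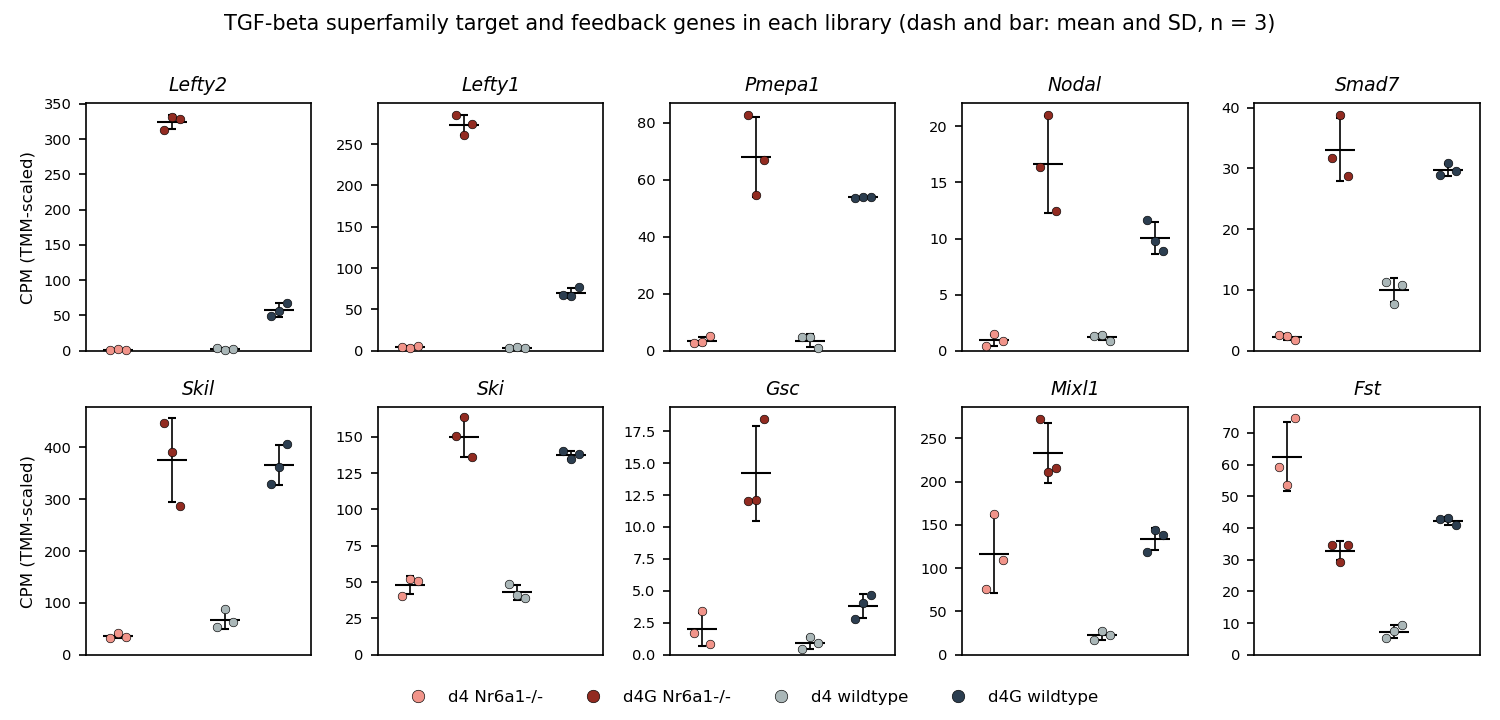
CPM (vertical axes, from 0) of 10 target and feedback genes in each of 12 libraries, 3 per group, with points for libraries and a dash and bar for mean and SD. In 9 of the 10 genes the d4G Nr6a1-/- libraries are above the d4 Nr6a1-/- libraries, and Fst alone moves down in Nr6a1-/- cells and up in wildtype cells.

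The BMP branch of the superfamily also changed. Of 14 tested genes 7 were higher (50%) and 2 lower (14.3%), with a median change of 0.401, and without d4G replicate 3 the counts were 4 and 3. The ligands Bmp7 (19.1, 18.9 and 23.4 CPM in d4 and 40.4, 59.2 and 54 CPM in d4G) and Bmp2 (rise 1.99, FDR 0.00229), the receptor Bmpr2 (rise 1.46) and the target Msx2 (1.73, 0.968 and 1.28 CPM in d4 and 14.4, 14 and 13.3 CPM in d4G) rose. Id2 and Id3, inhibitors of basic helix-loop-helix factors and common BMP targets, went the other way. Id2 had 77.5, 56.1 and 60.1 CPM in d4 and 28.4, 18.5 and 20.6 CPM in d4G and Id3 had 140.3, 73.5 and 83.5 CPM in d4 and 47.1, 41.4 and 45.5 CPM in d4G, with log2 changes of -1.51 and -1.15, so the called target genes of this list moved in both directions.

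Most NMP genes fell in Nr6a1-/- cells. All 22 listed genes were tested, and 14 were lower (63.6%, against 9.59% of all genes), 1 was higher and 7 were not called, with a median change of -1.28. Without d4 replicate 1, 13 were lower and 1 higher. Nkx1-2, a homeobox gene of the caudal epiblast, had 89.2, 93.4 and 141 CPM in d4 and 17.3, 13.4 and 26.6 CPM in d4G, a log2 change of -2.45 ± 0.19 (FDR 1.44e-12). Sox2, the neural and pluripotency factor which NMPs express together with T, had 33.4, 38.2 and 46 CPM in d4 and 8.18, 3.82 and 7.72 CPM in d4G. Cdx2, a homeobox activator of trunk Hox genes, had 84, 90 and 97.6 CPM in d4 and 24.5, 22.9 and 21.9 CPM in d4G, and its relative Cdx1 had 312, 369 and 348 CPM in d4 and 188, 204 and 213 CPM in d4G. In none of these genes did a d4G library reach a d4 library. Sp8, a Wnt-dependent zinc finger factor, the ligand Wnt8a and the tail bud ligand Fgf8 fell with log2 changes of -2.50, -2.63 and -1.80 (FDR 3.38e-09, 3.81e-06 and 3.50e-10). T (brachyury), which marks NMPs and early mesoderm, had 132, 111 and 159.8 CPM in d4 and 115, 109.5 and 107 CPM in d4G. These values overlapped between the groups and T was not called (change -0.28, FDR 0.0622), though it passed without d4 replicate 2, with a fall of 0.40 on the log2 scale and an FDR of 0.00783. Fgf17, another tail bud ligand, was the member that rose, from 29, 32.4 and 29.8 CPM in d4 to 80.8, 54.1 and 66.5 CPM in d4G.

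The same NMP genes were not all lower in wildtype cells. There 7 of the 22 were called higher and 8 lower, with a median change of -0.227, and the difference between the genotypes passed its test in 10 of 22 genes, all toward a lower response in Nr6a1-/- cells (1.49% of all genes tested differed in that direction). Among them were Nkx1-2 (difference -2.18, FDR 1.54e-05), T (-1.22, FDR 1.54e-06), Greb1, an estrogen-responsive gene (-1.23, FDR 1.10e-05), and the retinoic acid-degrading enzyme Cyp26a1 (-1.34, FDR 0.00281). Wildtype T had 90.2, 74.3 and 86.5 CPM in d4 and 156, 157 and 165 CPM in d4G, a rise of 0.94 (FDR 1.25e-08). Levels without Gdf11 also differed, since wildtype d4 cells had 23.5, 16.9 and 19.8 CPM of Nkx1-2 where Nr6a1-/- d4 cells had 89.2, 93.4 and 141 CPM. Summed over 6 NMP markers, the d4 Nr6a1-/- libraries held 417 to 555 CPM and the d4G Nr6a1-/- libraries 183 to 211 CPM, against 370 to 400 and 290 to 312 CPM in wildtype cells. In libraries of whole cultures, fewer cells of a type and less RNA of these genes per cell cannot be told apart.

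Genes of the presomitic mesoderm, the unsegmented tissue from which somites form, and of its Notch-driven clock moved in both directions, more often down. Of 15 tested, 9 were lower (60%) and 4 higher (26.7%), and these counts were the same without d4 replicate 1. Hes7, the core oscillator, had 209, 221 and 210 CPM in d4 and 19.2, 19.7 and 21.4 CPM in d4G, a log2 change of -3.40 ± 0.16 (FDR 4.86e-19). The glycosyltransferase Lfng, which acts with it in the clock, had 22.5, 21.8 and 24.3 CPM in d4 and 8.18, 9.55 and 14.6 CPM in d4G, and its call was lost without d4G replicate 1 (FDR 0.0546). The Notch ligand Dll1 had 193, 220.1 and 241 CPM in d4 and 126, 109.5 and 105 CPM in d4G. Mesp2, which sets the somite boundary, had 5.63, 3.39 and 5.11 CPM in d4 and 1.44, 0.637 and 0 CPM in d4G, and Mesp1 had 15.2, 6.29 and 7.67 CPM in d4 and no count in d4G, at least 19.6-fold lower when 3 counts are allowed over the d4G group. All of these genes were lower in every d4G library. Hes1 and Hey1, also Notch effectors, rose. Hes1 had 126, 102 and 99.3 CPM in d4 and 486, 494 and 472 CPM in d4G, and Hey1 had 11.7, 12.1 and 9.37 CPM in d4 and 43.3, 42 and 48.5 CPM in d4G, with rises of 2.15 and 2.02 (FDR 4.52e-19 and 6.74e-08). Tbx6, a T-box regulator of the tissue, had 179.8, 211 and 181 CPM in d4 and 141, 124 and 140.3 CPM in d4G, a smaller log2 change of -0.49 (FDR 0.00168).

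Some somite markers were high in Nr6a1-/- cells without Gdf11 and lower with it, while the somite list as a whole moved in both directions. Meox1, an early somite homeobox gene, had 226, 169 and 209 CPM in d4 and 13.5, 21.6 and 18 CPM in d4G, a log2 change of -3.52 ± 0.18 (FDR 8.00e-17). Foxc2, a forkhead gene of paraxial mesoderm, had 17.3, 16.4 and 17.5 CPM in d4 and 3.37, 1.27 and 3 CPM in d4G, and Foxc1 had 33.4, 42.1 and 37.9 CPM in d4 and 16.8, 22.9 and 13.7 CPM in d4G. Summed over Meox1, Tcf15, Foxc2 and Pax3, the d4 Nr6a1-/- libraries held 192 to 261 CPM and the d4G libraries 33.2 to 36.3 CPM, with no overlap. The wildtype libraries held 21.8 to 28.3 CPM in d4 and 14.3 to 25.1 CPM in d4G. The change of the sum in Nr6a1-/- cells was carried mostly by Meox1. Tcf15 overlapped between the groups, with 16.5, 5.8 and 8.1 CPM in d4 and 10.1, 5.1 and 9.01 CPM in d4G. Over the whole list of 12 tested genes 4 were lower and 4 higher (33.3% each), with a median of -0.0105. The rises included Pax3, a paired box gene of the dorsal somite and neural tube (0.866, 0.484 and 0.426 CPM in d4 and 6.25, 8.28 and 6 CPM in d4G), the fibrillin gene Fbn2 and the receptor Pdgfra. Pax3 rose by 3.39 (FDR 2.48e-05), from below 1 CPM in every d4 library.

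**Figure D3:**
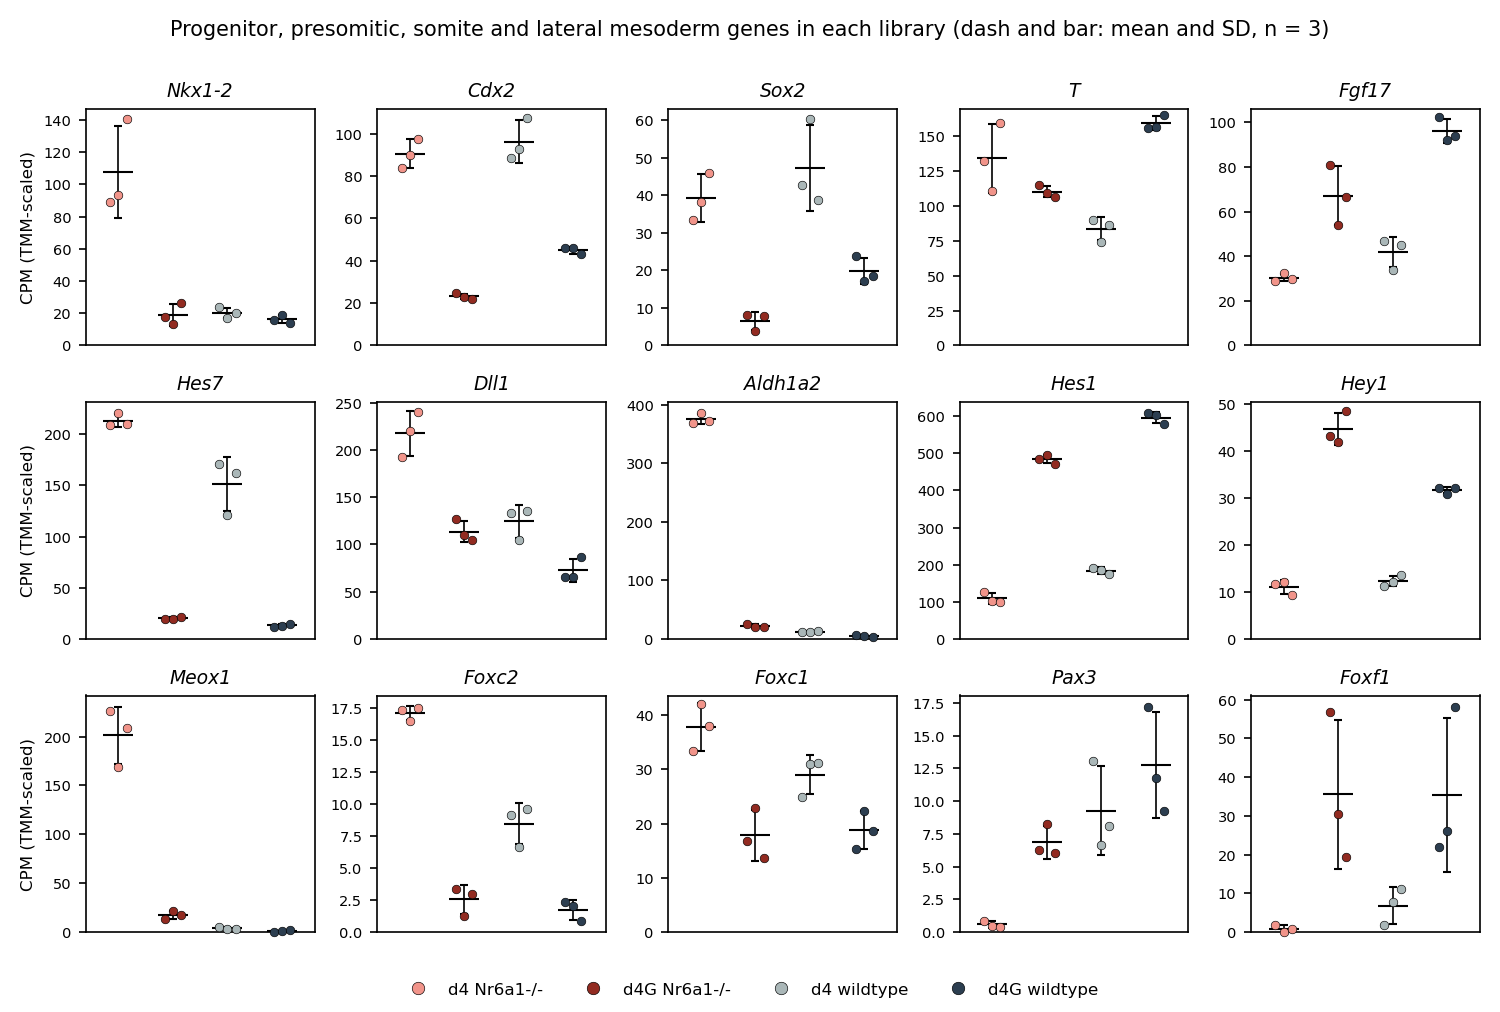
CPM (vertical axes, from 0) of 15 progenitor, presomitic, somite and lateral mesoderm genes in each of 12 libraries, 3 per group, with points for libraries and a dash and bar for mean and SD. Nkx1-2, Hes7, Aldh1a2 and Meox1 drop from d4 to d4G in Nr6a1-/- cells, Hes1, Hey1 and Foxf1 rise, and T overlaps between d4 and d4G in Nr6a1-/- cells but not in wildtype cells.

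Genes of the lateral and intermediate mesoderm and the hindlimb field rose more often than they fell, 5 higher (45.5%) and 1 lower (9.09%) of 11 tested. Without d4 replicate 1, d4 replicate 2 or d4G replicate 3, 3 were higher and 1 lower. Foxf1, a forkhead gene of lateral plate mesoderm, had 1.73, 0 and 0.852 CPM in d4 and 56.8, 30.6 and 19.3 CPM in d4G, a rise of 5.24 ± 0.63 (FDR 9.92e-08), and its d4G libraries differed widely among themselves. Tbx3, a T-box gene of limb and lateral mesoderm, had 8.23, 8.22 and 15.3 CPM in d4 and 161, 168 and 133 CPM in d4G, and the zinc finger gene Sall4 had 234, 222 and 250.5 CPM in d4 and 829, 856 and 686 CPM in d4G. Both were clearly separated between the groups (rises of 3.84 and 1.75). Lhx1, a gene of intermediate mesoderm and node, had 18.2, 12.1 and 14.5 CPM in d4 and 7.7, 1.27 and 2.15 CPM in d4G and was the one that fell. Summed over Hand1, Hand2, Foxf1 and Isl1, the level went from 1.28 to 3.47 CPM in d4 to 19.3 to 57.7 CPM in d4G Nr6a1-/- libraries, a change carried by Foxf1 (6 counts over the d4 and 211 over the d4G libraries), while Hand1 had 7 and 4 counts and Hand2 and Isl1 1 and 0 each.

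Markers of other cell types were low in these libraries. Summed over the markers of each type, the highest of the 6 Nr6a1-/- libraries held 1.94 CPM for neural crest (Sox10, Foxd3, Tfap2a), 1.73 CPM for notochord (Noto, Shh, Foxa2) and 6.5 CPM for blood and endothelium (Kdr, Etv2, Tal1, Cdh5). It held 7.26 CPM for endoderm and 12.8 CPM for pluripotent cells. Neural markers (Sox1, Pax6, Irx3, Neurog2, Tubb3) summed to 11.1 to 20 CPM in d4 and 9.14 to 10.8 CPM in d4G. Among 8 tested neural crest genes 2 rose (25%), Ets1 (3.46, 7.26 and 4.26 CPM in d4 and 74.1, 66.9 and 63.1 CPM in d4G) and Sox8 (0, 0 and 0.852 CPM in d4 and 15.9, 8.28 and 11.2 CPM in d4G), both of which are also expressed elsewhere. Among 21 tested neural genes 6 fell (28.6%) and 1 rose (4.76%), the latter count being 1 to 2 when each library was left out in turn. Hes5, a Notch target of neural progenitors, had 45, 74.5 and 74.6 CPM in d4 and 6.73, 14.7 and 9.87 CPM in d4G, Zic2 fell by 2.23 on the log2 scale (FDR 0.000774) and the adhesion gene Ncam1 had 709.5, 595 and 726 CPM in d4 and 360.3, 289 and 197 CPM in d4G. Each of them was lower in every d4G library. Of 13 endoderm-associated genes 3 were lower (23.1%), among them Cdh1 and the apolipoprotein gene Apoe. Of 21 pluripotency and epiblast genes 2 were higher (9.52%, against 8.45% of all genes), 1 of them the Nodal inhibitor Lefty1, and 0 lower. Of 4 notochord and node genes 2 were called, both higher keratins, and of 6 blood and endothelial genes 1, Fli1, was higher. When each of the 6 libraries was left out in turn, these last 4 lists held 2 to 3, 1 to 2, 1 to 2 and 1 to 2 called in those directions.

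Genes of the FGF pathway moved in both directions, more often down. Of 23 tested, 9 were lower (39.1%) and 5 higher (21.7%). Fgf4, the ligand of streak and tail bud, had 81.9, 84.2 and 107 CPM in d4 and 8.18, 5.09 and 6.86 CPM in d4G, a log2 change of -3.73 ± 0.20 (FDR 4.31e-17). Fgf15 had 55.9, 71.6 and 66 CPM in d4 and 13.9, 10.8 and 9.01 CPM in d4G, and Fgf3 had 59.3, 62.4 and 47.3 CPM in d4 and 12.5, 17.2 and 13.7 CPM in d4G. With Fgf8, 4 ligand genes were thus lower in every d4G library. The ETS factors Etv4, Etv5 and Etv1, which ERK signalling induces, fell with log2 changes of -1.36, -1.34 and -1.03, though the call of Etv1 was lost with counts thinned to a common depth (FDR 0.115). Fgf17, the receptor Fgfr1, the immediate early gene Egr1 and the inhibitor Il17rd rose. All cells received FGF2 throughout.

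Wnt genes moved in both directions. Among 22 tested ligands and receptors 6 were higher and 6 lower (27.3% each), and 4 to 6 and 5 to 6 when each library was left out in turn. Wnt3 (3.03, 4.84 and 5.11 CPM in d4 and 18.8, 22.3 and 25.3 CPM in d4G), Wnt5a (115, 73 and 74.6 CPM in d4 and 148, 169 and 154 CPM in d4G) and Wnt5b rose, with Wnt10a and 2 receptor genes of the frizzled family. Wnt7a had 14.7, 20.3 and 27.7 CPM in d4 and 0.481, 1.27 and 1.72 CPM in d4G, and Fzd2 had 52.4, 65.8 and 63.1 CPM in d4 and 14.9, 20.4 and 18.4 CPM in d4G, while the R-spondin Rspo3 had 151, 157 and 154 CPM in d4 and 78.4, 69.4 and 96.1 CPM in d4G. Of these, Wnt7a nearly disappeared (log2 change of -4.10, FDR 9.26e-09) and the other falls were partial. Among 20 tested Wnt targets and feedback genes 7 were higher (35%) and 3 lower (15%), the same counts as without d4 replicate 1. The inhibitor Nkd2 had 33.4, 47.4 and 40.5 CPM in d4 and 528, 589 and 594 CPM in d4G, a rise of 3.82 ± 0.13 (FDR 9.52e-23), Dkk1 had 3.46, 5.32 and 4.26 CPM in d4 and 29.8, 24.8 and 27.9 CPM in d4G, and Axin2 had 153, 130.1 and 154 CPM in d4 and 259, 246 and 214 CPM in d4G. The members that fell included Cdx1 and Cdx2. CHIR99021, which activates the pathway inside the cell, was the same in both groups.

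Retinoic acid is made from vitamin A by Aldh1a2 and, in the paraxial mesoderm, opposes FGF signalling. Aldh1a2 had 369.5, 386 and 373 CPM in d4 and 25.5, 19.7 and 19.7 CPM in d4G, a log2 change of -4.11 ± 0.16 (FDR 4.62e-21), and the groups were far apart. The retinoid-binding protein gene Crabp2 (351, 235 and 271 CPM in d4 and 64.5, 54.8 and 60.9 CPM in d4G) fell with it, as did the receptor Rxrg. The retinol transporter Stra6 (58.5, 74 and 73.7 CPM in d4 and 136, 136 and 121 CPM in d4G) and the binding protein Crabp1 rose. In all, 6 of 15 tested retinoid genes were lower (40%) and 3 higher (20%), and 4 to 6 and 2 to 3 when each library was left out in turn. Wildtype cells held 12 CPM of Aldh1a2 in d4 and 4.21 CPM in d4G on average, and the difference between the responses, -2.59, passed its test (FDR 0.000135).

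Among 12 genes linked to developmental timing, 7 were lower (58.3%) and 2 higher (16.7%), also without d4 replicate 1. Besides Nr6a1, the RNA-binding protein gene Lin28a, which blocks let-7 processing, had 219, 275 and 291 CPM in d4 and 66.4, 65.6 and 63.5 CPM in d4G, and its relative Lin28b had 54.6, 62.9 and 76.3 CPM in d4 and 36.1, 42 and 41.6 CPM in d4G. Prtg (protogenin), a receptor of the trunk-forming epiblast, had 2334, 2387 and 2145 CPM in d4 and 504, 524 and 456 CPM in d4G, the highest level of the list. All 3 were lower in every d4G library, with log2 changes of -2.01, -0.70 and -2.21 (FDR 6.41e-18, 0.000355 and 7.61e-19). Hmga2, a chromatin protein and let-7 target, went the other way with 360.4, 524 and 494 CPM in d4 and 801, 735 and 729 CPM in d4G (rise 0.72, FDR 3.22e-05), as did Igf2bp3 (149, 163 and 160.2 CPM in d4 and 246, 206 and 253 CPM in d4G).

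Genes of the fibrillar matrix rose together. Of 19 tested 13 were higher (68.4%) and 2 lower (10.5%), with a median change of 1.01, and without d4 replicate 1 the counts were 12 and 2. Fn1, the fibronectin on which migrating mesoderm moves, had 106, 123 and 153 CPM in d4 and 363, 388 and 410.1 CPM in d4G, a rise of 1.60 ± 0.11 (FDR 3.69e-14). Has2, which makes hyaluronan, had 2.17, 0.968 and 5.54 CPM in d4 and 21.2, 19.7 and 23.2 CPM in d4G, and the versican gene Vcan had 99.2, 106 and 112 CPM in d4 and 204, 178 and 172 CPM in d4G. The collagen genes Col2a1 (1.3, 5.8 and 4.26 CPM in d4 and 19.7, 22.9 and 25.7 CPM in d4G), Col1a1, Col1a2, Col5a1, Col13a1 and Col26a1 all rose. Loxl2, a collagen cross-linking enzyme, fell. The lower count was 1 to 2 when each library was left out in turn. The summed level of 4 markers of feeder fibroblasts (Col1a1, Col1a2, Thy1, Postn), of which Col1a1 and Col1a2 are members of the list, moved from 16 to 19.9 CPM in d4 to 30.9 to 42.7 CPM in d4G. Over the 3 libraries of a group Col1a1 had 40 counts in d4 and 96 in d4G and Col1a2 51 and 99, while Thy1 had 17 and 5 and Postn 9 and 6, and the part of such cells in the result was not tested. Among basement membrane genes 4 of 13 were higher (30.8%) and 2 lower (15.4%), with Col4a1 (58.5, 78.8 and 67.7 CPM in d4 and 131, 143 and 139.8 CPM in d4G) and Col4a2 up and Col4a6 down. These counts were 3 to 4 and 1 to 2 when each library was left out.

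Adhesion genes changed in a mixed way. Of 20 cadherin and epithelial-mesenchymal genes 5 were higher and 5 lower (25% each), and 4 to 6 and 2 to 4 when each library was left out in turn. Snai1, a repressor of epithelial genes, had 12.6, 20.3 and 11.5 CPM in d4 and 50, 41.4 and 42.5 CPM in d4G, Cdh11 had 0.433, 2.42 and 1.7 CPM in d4 and 16.4, 14 and 12.4 CPM in d4G, and Cdh1 (E-cadherin) had 26, 20.3 and 25.6 CPM in d4 and 7.21, 5.73 and 8.15 CPM in d4G. The mesenchymal pair was higher and Cdh1 lower in every d4G library, with changes of 1.61, 3.21 and -1.74. Of 22 claudin, keratin and junction genes 4 were higher (18.2%) and 5 lower (22.7%), which became 3 to 4 and 2 to 4 in the same fits, and the junction protein F11r had 93.6, 103 and 109.9 CPM in d4 and 22.6, 29.3 and 29.2 CPM in d4G. Among 33 axon guidance genes 11 were higher (33.3%) and 6 lower (18.2%), which became 7 to 9 and 4 to 5 when each library was left out, with 7 higher without d4 replicate 1, d4 replicate 3, d4G replicate 1 or d4G replicate 2. The netrin receptor Unc5b had 6.93, 11.1 and 10.7 CPM in d4 and 55.8, 47.1 and 71.6 CPM in d4G, the Slit receptor Robo2 4.76, 3.39 and 4.26 CPM in d4 and 32.7, 24.2 and 30.5 CPM in d4G and the semaphorin receptor Nrp2 32, 35.8 and 30.2 CPM in d4 and 114, 106 and 108 CPM in d4G, and all 3 were higher in every d4G library. Sema6a fell by 1.20 on the log2 scale (FDR 6.90e-08).

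The apelin ligand and its receptor fell together. Beside Apln, the receptor gene Aplnr had 31.2, 36.3 and 49.4 CPM in d4 and 2.89, 5.73 and 7.29 CPM in d4G, a log2 change of -2.86 ± 0.27 (FDR 2.59e-10). The growth factor gene Pdgfa had 68.4, 59.5 and 63.5 CPM in d4 and 19.2, 20.4 and 19.3 CPM in d4G, while the gene of its receptor, Pdgfra, had 12.1, 13.1 and 13.6 CPM in d4 and 26, 25.5 and 23.6 CPM in d4G. Ligand and receptor thus changed in opposite directions in the PDGF pair and in the same direction in the apelin pair. The chemokine receptors Cxcr4 (14.7, 18.9 and 17.5 CPM in d4 and 50, 38.9 and 33.9 CPM in d4G) and Ackr3 rose. The list of 11 tested genes held 3 higher and 3 lower (27.3% each). In wildtype d4 cells Apln was at 1.84 CPM on average and Aplnr at 4.64 CPM, and both responses differed between genotypes (differences -4.44 and -2.02, FDR 0.0134 and 0.0372). The genotype difference of Apln was not called without wildtype d4G replicate 1 (FDR 0.0532) or replicate 2 (FDR 0.168), and that of Aplnr was lost without any 1 of 7 of the 12 libraries (wildtype d4 and d4G replicates 1 and 2, Nr6a1-/- d4 replicate 3 and d4G replicates 1 and 2, FDR up to 0.189).

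Of 13 tested inhibitors of the cell cycle 6 were higher (46.2%) and 0 lower, while most cycle genes were not called. DESeq2 called 4 inhibitors higher, and 4 to 6 were higher and 0 to 1 lower when each library was left out. Beside Btg2, the inhibitor Cdkn1c (p57) had 18.6, 28.5 and 29 CPM in d4 and 118, 128 and 124 CPM in d4G, Cdkn1a (p21) had 256, 198 and 208 CPM in d4 and 422, 422 and 424 CPM in d4G, and the stress-inducible Gadd45g had 11.3, 15.5 and 10.2 CPM in d4 and 39.4, 47.1 and 42.9 CPM in d4G. Rises were 2.28, 0.94 and 1.81, with no overlap between the groups. Of 34 cycle progression genes 31 were not called (2 higher, 5.88%, and 1 lower, 2.94%, against 8.45% and 9.59% of all genes). Of these genes 0 to 2 were higher and 0 to 2 lower when each library was left out in turn. Among 22 p53 target genes 4 were higher (18.2%) and 2 lower (9.09%, near the 9.59% of all genes). The largest change among them was the fall of Phlda3 (81.9, 72.1 and 73.3 CPM in d4 and 33.7, 34.4 and 32.6 CPM in d4G). When each library was left out, 1 to 3 were higher and 2 lower, and DESeq2 called 2 higher and 2 lower.

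Glycolysis and hypoxia genes were more often lower than higher in d4G cells. Of 27 tested 14 were lower (51.9%) and 1 higher (3.7%), with a median change of -0.557, and without d4 replicate 1 the counts were 13 and 1 and the median -0.31. Slc2a1, a main glucose transporter of early embryonic cells, had 360.4, 251 and 345 CPM in d4 and 76, 65.6 and 73.3 CPM in d4G. Its relative Slc2a3 had 217, 178 and 278 CPM in d4 and 74.1, 60.5 and 72.9 CPM in d4G. Both fell with log2 changes of -2.15 and -1.69 (FDR 6.16e-18 and 3.98e-12), and every d4G library was below every d4 library. Pdk1, the kinase that keeps pyruvate out of mitochondria, had 63.2, 34.8 and 46.4 CPM in d4 and 18.8, 15.9 and 16.3 CPM in d4G, and the hypoxia-inducible prolyl hydroxylase Egln3 had 42.5, 51.3 and 49.4 CPM in d4 and 19.7, 17.8 and 15.9 CPM in d4G. The glycolytic enzymes Gapdh, Tpi1 and Hk2 fell with changes of -0.65, -0.62 and -0.56. P4ha2, a collagen-modifying hydroxylase, was the member that rose (13, 16.9 and 9.37 CPM in d4 and 24.5, 23.6 and 26.2 CPM in d4G).

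Genes of the integrated stress response, which Atf4 drives when amino acids are short, were lower in 10 of 20 tested (50%) and higher in 0, with a median change of -0.5. Without d4 replicate 1 the counts were the same, and without d4G replicate 2, 6 were lower. The serine synthesis enzymes Phgdh (124, 104 and 81.4 CPM in d4 and 36.1, 42 and 49.8 CPM in d4G) and Psat1 (304, 334 and 353 CPM in d4 and 174, 194 and 206 CPM in d4G) fell, and so did the asparagine synthetase Asns (423, 539 and 462 CPM in d4 and 358, 316 and 338 CPM in d4G). Atf4 had 199, 191 and 174 CPM in d4 and 140.4, 127 and 177 CPM in d4G, with overlap of the groups and a log2 change of -0.34 (FDR 0.0177), a call that was lost without d4 replicate 1, d4G replicate 1 or d4G replicate 2 (FDR 0.0918, 0.089 and 0.137). The count of lower genes also fell to 6 without normalisation factors. Sterol and fatty acid synthesis genes were mostly not called, 2 higher and 2 lower of 29 (6.9% each, against 8.45% and 9.59% of all genes). These counts were 1 to 3 and 0 to 2 when each library was left out.

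Imprinted genes, expressed from 1 parental copy, were higher in 9 (32.1%) and lower in 6 (21.4%) of 28 tested, and without d4 replicate 1 the counts were 8 and 4. Dlk1, a non-canonical Notch ligand, had 22.1, 18.9 and 19.6 CPM in d4 and 98.1, 81.5 and 98.7 CPM in d4G, a rise of 2.20 ± 0.16 (FDR 2.59e-13). H19 passed at a low level, with 1.73, 0.968 and 2.13 CPM in d4 and 5.29, 8.28 and 6.86 CPM in d4G, where wildtype cells held 110 CPM in d4 and 616 CPM in d4G on average. Peg3, a zinc finger gene, had 878, 837 and 639.5 CPM in d4 and 456, 454 and 459 CPM in d4G, Phlda2 had 259.5, 289.8 and 217 CPM in d4 and 106, 106 and 107 CPM in d4G, and Nnat had 84.9, 60 and 71.2 CPM in d4 and 33.2, 33.1 and 33 CPM in d4G. The 3 genes were lower in every d4G library, with log2 changes of -0.78, -1.26 and -1.12.

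Ribosomal protein genes were lower in 41 of 88 tested (46.6%) and higher in 0, with a median change of -0.267. Without d4 replicate 1 only 9 were lower, 0 were higher and the median was -0.0461, while without d4 replicate 3, 69 were lower, so this count rests on the library with the high ribosomal protein share. Without normalisation factors 33 were lower and 1 was higher. In a fit of the compared libraries alone 4 of 86 were lower. Of 51 tested small nuclear, small nucleolar, Cajal body, ribosomal and miscellaneous RNA genes 24 (47.1%, against 9.59% of all genes) were lower and 0 higher, while without d4 replicate 1, 15 were lower and 1 was higher, and with RLE factors or none, 23 and 1. A share of counts was taken over all small RNA genes, tested or not, with microRNA and ribozyme genes included. In Nr6a1-/- cells it went from 1.93% to 2.63% in d4 to 1.58% to 1.62% in d4G. In wildtype cells it did not fall, with 1.97%, 1.45% and 1.32% in d4 and 2.36%, 1.78% and 1.57% in d4G. Of 557 processed pseudogenes 33 were lower (5.92%, against 9.59% of all genes) and 0 higher. In these gene classes reads may be shared between near-identical copies. In wildtype cells 81 of the 88 ribosomal protein genes were lower, with a median of -0.605. Ribosomal protein genes took 16.1% to 16.5% of counts in wildtype d4 libraries and 11.7% to 11.9% in wildtype d4G libraries.

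Chromatin regulators had 4 higher (16%) and 1 lower (4%) of 25 tested, against 8.45% and 9.59% of all genes. Nuclear receptors had 3 higher (13.6%) and 2 lower (9.09%) of 22, Hedgehog genes 0 higher and 1 lower (12.5%) of 8, and the Myc family 1 higher (9.09%) and 2 lower (18.2%) of 11. When each library was left out in turn, chromatin regulators had 1 to 4 higher and 0 to 3 lower, nuclear receptors 0 to 3 higher, with 0 without d4G replicate 3, and the Myc family 0 to 1 higher. Mycn had 183, 186 and 169 CPM in d4 and 89.9, 79 and 71.2 CPM in d4G, a log2 change of -1.17 (FDR 3.17e-09), while Myc was not called. Hox genes had 18 higher and 1 lower of 34 tested (52.9% and 2.94%).

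**Figure D4:**
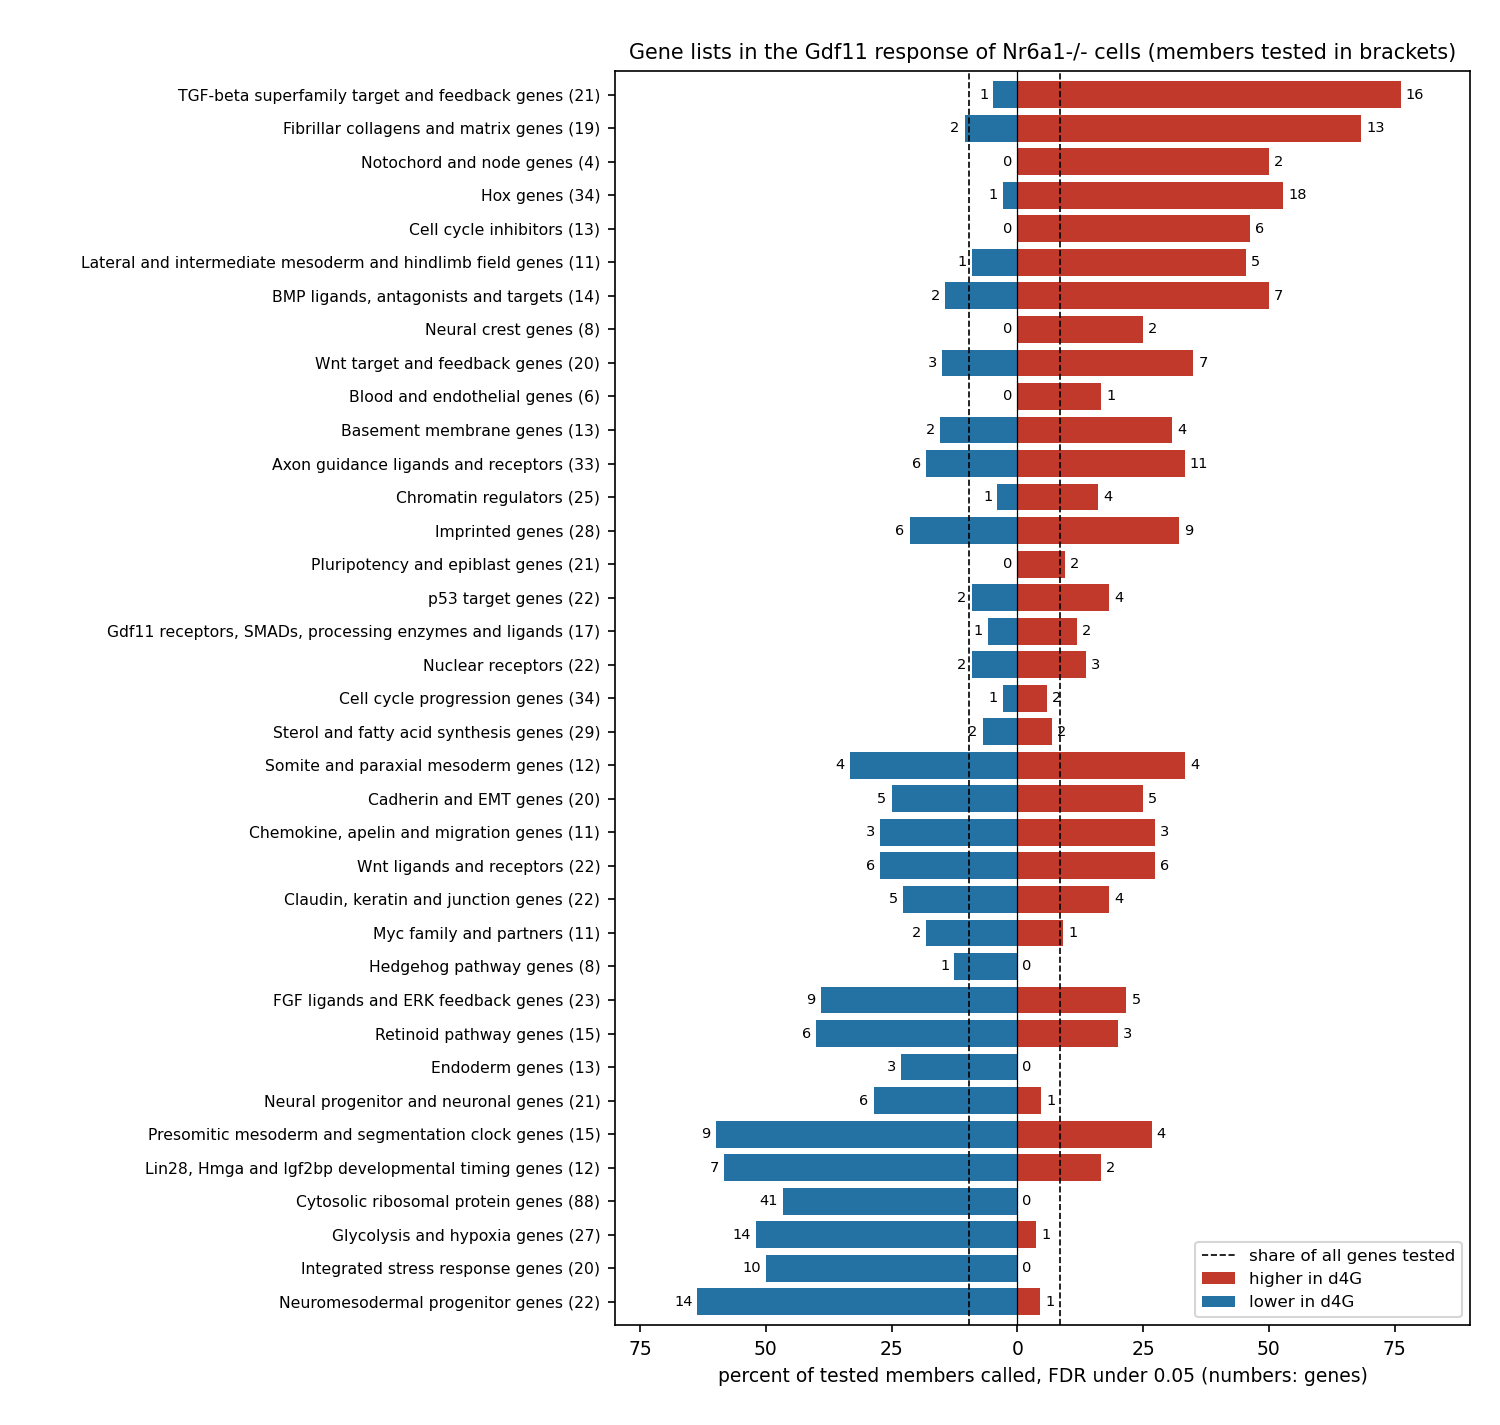
Percent of tested members of 37 gene lists that were called higher (right, red) or lower (left, blue) in d4G than in d4 Nr6a1-/- cells, with the number of called genes at each bar, the number tested in brackets and the shares of all genes (8.45% and 9.59%) as dashed lines. TGF-beta superfamily targets and matrix genes reach furthest to the right and NMP and presomitic genes furthest to the left.

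Compared with wildtype cells the response was similar in direction for most genes called in both. Wildtype cells had 3498 called genes (28.8%), and 1330 genes were called with the same direction in both genotypes, 60.7% of the Nr6a1-/- calls and 38% of the wildtype calls, against 33 called in opposite directions. A further 828 genes passed in Nr6a1-/- cells alone, but the difference between the responses passed its own test in only 95 of them. Over all genes this difference was called in 323 (2.66%), 142 with a more positive and 181 with a more negative change in Nr6a1-/- cells. Leaving out d4 Nr6a1-/- replicate 1 raised this count to 830, and leaving out d4 Nr6a1-/- replicate 3 lowered it to 205.

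The most positive differences, after the exclusion of Hox genes, included Sema3c, Car4, Lefty2 and Pax3. Lefty2 had 3.92, 1.1 and 3 CPM in d4 and 48.9, 55.6 and 67.9 CPM in d4G in wildtype cells. It rose by 4.50 there against 7.72 in Nr6a1-/- cells (difference 3.22, FDR 0.000958), and both genotypes were below 4 CPM in d4. This difference was not called with counts thinned to a common depth (FDR 0.159). Car4, a carbonic anhydrase, had 1.3, 2.42 and 0.426 CPM in d4 and 7.7, 13.4 and 9.87 CPM in d4G in Nr6a1-/- cells and 97.2, 101 and 89.2 CPM in d4 and 65.1, 59.3 and 46.8 CPM in d4G in wildtype cells (difference 3.61, FDR 1.38e-07). Sema3c, a secreted semaphorin, had 1.3, 0 and 0.852 CPM in d4 and 4.33, 3.18 and 3 CPM in d4G in Nr6a1-/- cells and fell in wildtype cells from 9.15, 8.84 and 15.6 CPM in d4 to 1.4, 3.25 and 3.37 CPM in d4G (difference 4.20, FDR 0.00124). Its rise in Nr6a1-/- cells alone was not called without d4 replicate 2, d4 replicate 3 or d4G replicate 1 (FDR 0.109, 0.0549 and 0.102). Lefty1, Tbx3 and Btg2 also rose more in Nr6a1-/- cells, with differences of 1.82, 2.33 and 1.57 (FDR 0.00056, 7.15e-07 and 3.29e-10). The 21 tested SMAD target and feedback genes did not all respond more in Nr6a1-/- cells. Their differences were positive in 5 and negative in 3, against 1.17% and 1.49% of all genes. In wildtype cells 18 of them were higher with a median change of 1.75, against 16 and 1.64 in Nr6a1-/- cells.

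The most negative differences were in Wnt7a, Apln, Gm2694, Fst and Mgll. Wnt7a had 0, 0.829 and 0 CPM in d4 and 1.86, 2.03 and 2.11 CPM in d4G in wildtype cells, with 3 counts over the d4 group and a pooled ratio of 6.18 (exact 95% interval 1.72 to 33.5). There it rose by 2.45 (FDR 0.0179, which became 0.0554 without wildtype d4 replicate 1 and 0.0871 without wildtype d4 replicate 3), so the fitted changes went in opposite directions in the genotypes (difference -6.56, FDR 2.11e-05). Gm2694, a long non-coding RNA gene at chr8:87460469-87525554, had 60.2, 59 and 49.4 CPM in d4 and 4.33, 1.91 and 5.15 CPM in d4G in Nr6a1-/- cells and 6.97, 7.74 and 9.91 CPM in d4 and 5.12, 7.71 and 7.59 CPM in d4G in wildtype cells (difference -3.52, FDR 3.55e-07). Apln, Gm2694 and Mgll, a monoglyceride lipase gene, were lower in wildtype than in Nr6a1-/- cells at d4, and their wildtype changes were not called. Mixl1 rose in both genotypes, by 1.02 in Nr6a1-/- and 2.53 in wildtype cells, from a higher level in Nr6a1-/- cells (difference -1.51, FDR 0.00064).

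**Figure D5:**
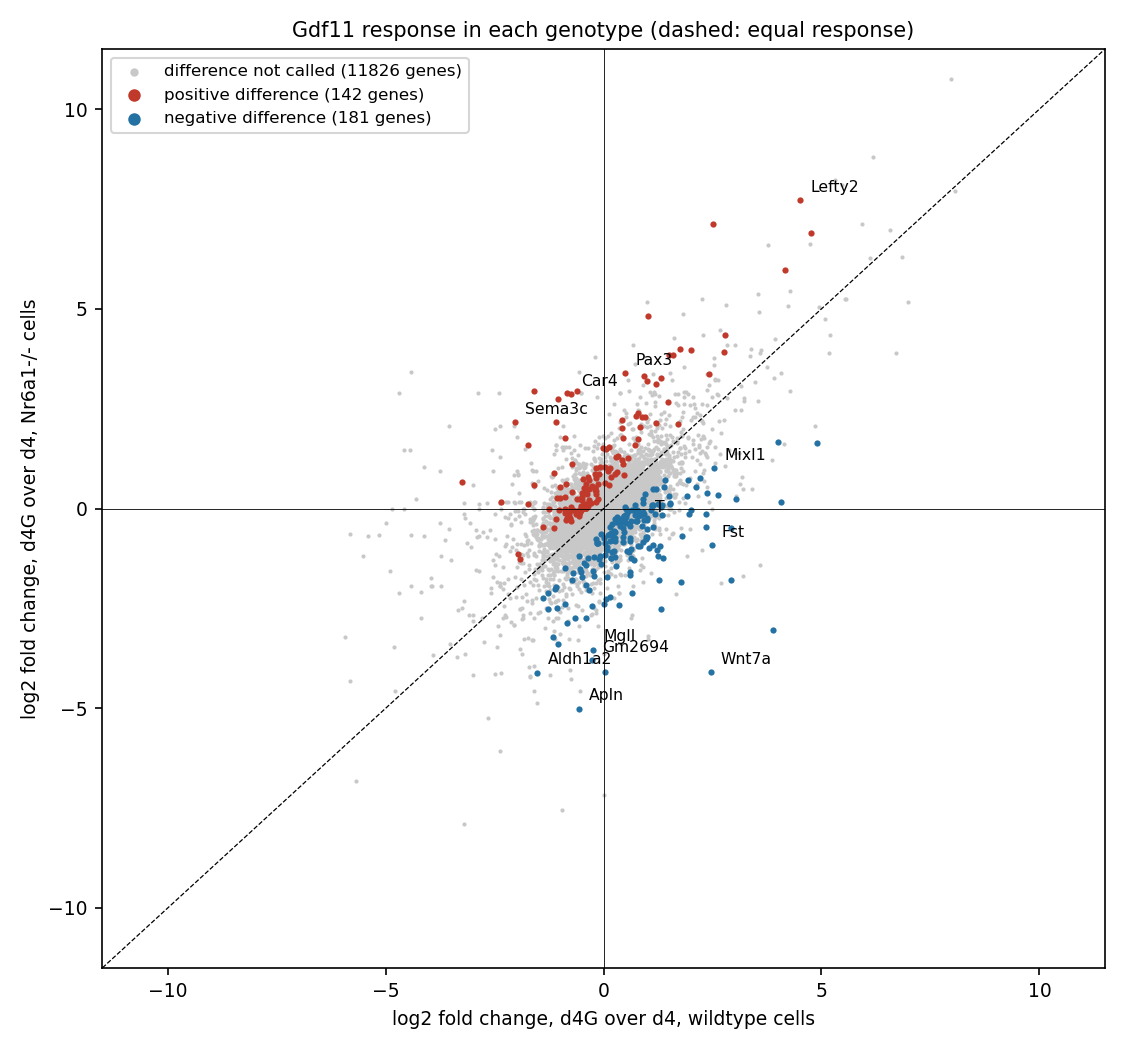
Log2 fold change of d4G over d4 in Nr6a1-/- cells (vertical axis) against that in wildtype cells (horizontal axis) for each tested gene, with the dashed line at equal response. Red marks 142 genes with a more positive and blue 181 with a more negative response in Nr6a1-/- cells at FDR under 0.05, and Fst and Wnt7a lie at the lower right, up in wildtype and down in Nr6a1-/- cells.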

How the data were processed

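Per the labels, RNA was sequenced from 3′-end libraries and aligned to the mouse genome (mm10) with STAR, and the authors deposited raw counts per gene for 30 libraries in 10 groups. The STAR version, the annotation, the use of strand and the collapse of molecular identifiers are not given in the sources used here. Further deposited tables hold the authors' fold changes and p-values between genotypes and were not used.

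A gene was tested where, in some group, 2 or more libraries exceeded both 10 counts and 2 CPM (12149 genes, at least 99.2% of counts per library). The quasi-likelihood test of edgeR 4.0.16 (R 4.3.3, TMM factors) was fitted to all 10 groups, which share 1 estimate of spread (20 residual degrees of freedom), without a replicate block. Contrasts were d4G against d4 in each genotype and the difference between these. The code was tested on simulated data. DESeq2 1.42.0, limma-voom 3.58.1, other scalings and filters, counts thinned to 1570714 per library, a fit of the compared libraries alone, a replicate block and the omission of each library were alternatives.

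Genes named were the 15 largest rises and falls at 10 CPM or more without overlap of libraries, the 5 largest genotype differences in each direction, and members of 37 gene lists. Some items that these rules select are not reported here. The members and lists were chosen with earlier results of these data known. Intervals and the floor of 3 counts cover counting error only. Gene positions are from GENCODE M21 (GRCm38).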

Additional observations from a re-analysis of the deposited data

Results flagged for a closer look

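The results named here are those in which the Gdf11 response differed between the genotypes by a test of the difference itself. This difference was called in 323 genes, and every value below is the log2 response of Nr6a1-/- cells minus that of wildtype cells. With 3 libraries a group, single libraries were not screened for outlying values.

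Among genes of the SMAD pathway the difference was -3.40 for the antagonist Fst, 3.22 for Lefty2, 1.82 for Lefty1 and -1.51 for Mixl1. Among progenitor and retinoid genes it was -2.18 for Nkx1-2, -1.22 for T, -1.23 for Greb1, -1.34 for Cyp26a1 and -2.59 for Aldh1a2, all toward a lower response in Nr6a1-/- cells. Signalling and adhesion genes lay in both directions, at -6.56 for Wnt7a, -4.44 for Apln, -2.02 for Aplnr and 4.20 for Sema3c. The remaining genes were the carbonic anhydrase gene Car4 at 3.61, the limb and lateral mesoderm gene Tbx3 at 2.33, the cell cycle inhibitor Btg2 at 1.57 and the non-coding RNA gene Gm2694 at -3.52. The values for Apln, Aplnr and Lefty2 were not called with counts thinned to a common depth (FDR 0.0763, 0.157 and 0.159), nor those for Apln and Aplnr when some single libraries were left out. The sources used here describe 1 Nr6a1-/- clone, so genotype and clone cannot be told apart in any of these differences.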

How the results depend on the processing

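The count of genes called in Nr6a1-/- cells was 2191, it lay between 1467 (only the compared libraries fitted) and 2253 under all alternatives, and between 1608 and 2159 when each library was left out. The count of genotype differences, 323, became 212 in a fit of the compared libraries alone and lay between 205 (without d4 Nr6a1-/- replicate 3) and 830 (without d4 Nr6a1-/- replicate 1) when each library was left out. The cause was not tested. Without normalisation factors the share of called genes that were higher went from 46.8% to 59.7% in Nr6a1-/- and from 49.8% to 63.2% in wildtype cells.

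With the replicate number as a block, 2253 genes were called in Nr6a1-/- cells, 3564 in wildtype cells and 349 for the difference. The labels do not say that a number marks a shared culture, though same-numbered wildtype d4 and d4G libraries share an index sequence. Deviations of same-numbered d4 and d4G libraries from their group means correlated at 0.0238, 0.0123 and 0.0365 in Nr6a1-/- cells. In wildtype cells they correlated at 0.117, 0.00193 and 0.163. Differently numbered libraries correlated at -0.0455 to 0.0206 in Nr6a1-/- cells and at -0.145 to 0.0242 in wildtype cells. These values do not settle whether a number marks a shared culture.

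Of 153 named genes, 145 kept the outcome of the test under every alternative, as did 14 of 17 genotype differences and 4 of 5 wildtype values. No named value changed direction. DESeq2 called 1838 genes. Without normalisation factors, with voom or with thinned counts 3 in place of 5 cadherin genes were lower, and with DESeq2 2 in place of 5 claudin genes. Depth limits genes at or below 3 counts in a library, where a fold change depends on the prior count.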
